A study of Drosophila melanogaster with 6 samples.

Results

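The genes described here are 83 genes, 81 of them protein-coding, whose RNA was at least halved in wing discs of *dLsd1* mutant larvae. They were chosen by their measured levels, from 17471 gene rows. A gene was taken when its mean in *wild-type* was at least 2 counts per 1000000 counts of its library (CPM), when its mean in the mutant was at most 50% of that, and when each mutant library was below each *wild-type* library. The 3 conditions were met by 99 genes, of which 16 were set aside by name: *dLsd1* itself, Oseg5, Adk3, park, Hira, 2 cytochrome P450 genes and 9 non-coding RNAs or pseudogenes. The fall of the remaining 83 genes is therefore a description of how they were selected and not a result.

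RNA-seq was done on wing discs, the larval epithelia that give rise to the adult wings, dissected from wandering female larvae of the third instar, with 30 discs per sample. The 3 *wild-type* samples came from an inbred, non-isogenised w1118 stock. The 3 mutant samples were homozygous for dLsd1∆N, a null allele made by a deletion between transposon insertions, and their stock is kept over a balancer chromosome. Both stocks differ in more than the *dLsd1* allele, so genotype and stock background cannot be told apart. dLsd1 is the fly homologue of the lysine demethylase LSD1, which removes methyl groups from lysine 4 of histone H3 and works together with the corepressor CoREST. This activity is best known for keeping genes silent, and wing disc cells grow, divide and take on their fates while it acts. In whole discs, fewer cells of a type and less RNA per cell cannot be told apart.

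The libraries held between 13960866 and 45909324 counts, and a level of 2 CPM stood for 27.9 counts in the shallowest library (*wild-type* replicate 2) and 91.8 in the deepest. The count of *dLsd1* was 2136, 676 and 2564 in the *wild-type* replicates against 7, 6 and 1 in those of the mutant, as the labels require. Of 12 listed markers of wing disc epithelium, 11 were matched. They summed to 1286, 1321 and 2756 CPM in *wild-type* replicates and 1608, 1848 and 1962 in mutant replicates. Those of haltere and leg disc summed to 17.3, 28.4 and 61.6 in *wild-type* replicates and 25.2, 34.9 and 35.3 in mutant replicates. Gut and Malpighian tubule markers stayed at or under 2.002. The sums were 963 to 1234 for trachea, 201 to 273 (*wild-type*) and 256 to 281 (mutant) for adult muscle precursors, 8.49 to 34.5 for differentiated muscle and 0.632 to 24.8 for salivary gland. *Wild-type* replicate 3 stood apart from its group. Its fat body markers summed to 61.7 CPM against 567 and 863 in the other *wild-type* libraries, with 557, 361 and 125 in mutant replicates 1 to 3. Its 6 neuronal markers summed to 62.4 against 13.7 and 17.2, with 18.6 to 35.9 in the mutant. Syx1A (35.9 against 7.0 and 9.5) and elav (25.4 against 5.7 and 6.4) carried this rise. Syt1 was lower there (0.61 against 0.766 and 0.788), and Sh, nSyb and brp stayed at or under 0.495 in every library. When it was left out, 411 genes in all (3.87%) were called downregulated, against 242 (2.23%) with all libraries. All 83 members were among the 411, but the rule used the same contrast, so nothing is read from this.

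The 83 genes were mostly of low to moderate abundance and poorly characterised. Their *wild-type* level had a median of 8.95 CPM, against 50.9 for the 7498 other genes at or above 2 CPM, which are called the other expressed genes below. In *wild-type*, 31 members lay below 5 CPM, 24 between 5 and 20, 21 between 20 and 100, and 7 above 100. Per kilobase of exon, the median was 5.51 CPM for the 82 members with annotated exons and 21.4 for the other expressed genes. A CG number or identifier was the only name of 56.6% of members and of 31.0% of the other expressed genes. Summed over members, the level came to 3847 CPM for *wild-type* against 1359 for the mutant, and the chitinase gene Cht10 alone made up 41.7% of the *wild-type* sum.

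The depth of the fall ranged widely. The mutant level was under 10% of *wild-type* for 12 genes, between 10% and 25% for 20, between 25% and 40% for 27 and between 40% and 50% for 24, with a median of 30.1%. Across the 83 genes, *wild-type* level and the percentage left in the mutant had a Spearman correlation of 0.14, given as a description across genes of the same libraries. The rule set limits on both values, so no relation to abundance, or lack of it, is read from this. When libraries with the same replicate number were set side by side, mutant replicate 1 was at or below 50% of *wild-type* replicate 1 for 80 members, and the same held for 73 members in replicate 2 and for 65 in replicate 3. It held in all 3 pairs for 58 members. These counts were largely fixed by the rule, which limited the mutant mean to 50% and allowed no overlap of libraries, so nothing is read from them.

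**Figure D1:**
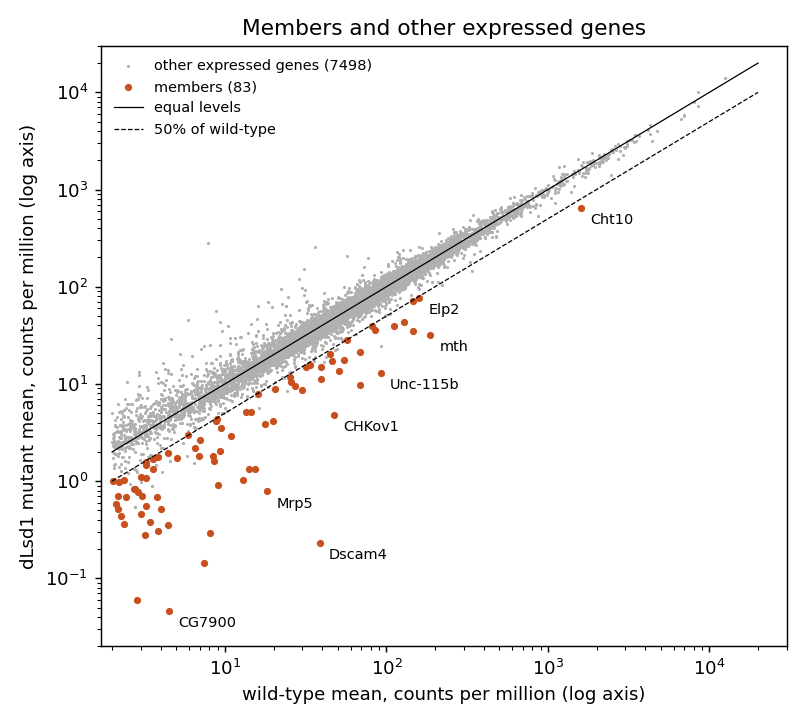
Mean level in the *dLsd1* mutant against mean level in *wild-type*, in CPM on log axes, for the 83 members (orange) and the 7498 other expressed genes (grey, those with a mutant level above 0). The members lie below the dashed line that marks 50% of *wild-type*, from Dscam4 at 0.596% to Fhos at 49.7%, while the other genes lie around the line of equal levels, with a median of 98.8%.

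A fit over all genes and transposon families with edgeR's quasi-likelihood test called 78 of the 83 members downregulated, at a log2 fold change below -0.6 and an adjusted p-value below 0.1. Over all 10841 genes tested, 2.23% were called downregulated and 4.32% upregulated, and the 3 conditions of the rule were met by 1.3% of the 7597 genes at or above 2 CPM. The shares over all genes tested are the background for the counts of called genes on the lists below. Since the rule used this contrast, nothing is read from the share of members called. The 5 members not called were Edg91, r-cup, Taf12L, CG17738 and CG17698, with adjusted p-values between 0.106 and 0.190 from edgeR. With the replicate number as a block, r-cup, Taf12L and CG17698 were called, at adjusted p-values of 0.0944, 0.0815 and 0.0377 from edgeR. Of the 78 called members, 63 were also called each time 1 of the 6 libraries was removed. The 15 that lost the call at least once included, of the genes described below, Cht10, CHKov1, NimC1, CG34445, CG43325, CG43326, Vajk4, nrm, CG8745 and Argk2.

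The borders of the set were narrow. The lowest *wild-type* means among members were those of Taf12L, NimC1 and Prx6c, at 2.03, 2.10 and 2.19 CPM. Taf12L had 1.99, 2.44 and 1.68 CPM in *wild-type* replicates 1 to 3 and 0.844, 1.27 and 0.874 in the mutant replicates. Just under the level of 2 CPM lay CG2187 with 1.96, CG13532 with 1.72 and CG9270 with 1.68. CG2187 was nearly absent in the mutant, where its level was 0.0272, 0 and 0, so genes with deep falls also lie outside the set. At the limit on the mutant share, Fhos, CG5687 and hpRNA:CR32207 were inside at 49.7%, 49.7% and 49.5% of *wild-type*, and Nelf-E and Ac3 were outside at 50.5% and 50.8%. Fhos had 50.8, 48.2 and 72.8 CPM in *wild-type* replicates against 26.8, 26.2 and 32.4 in mutants. CG5687 had 6.63, 6.30 and 4.88 CPM in *wild-type* replicates against 2.56, 3.02 and 3.27 in mutants. The lowest *wild-type* library was 1.49 times the highest mutant library for each of them. The gap was smallest for Edg91, CG17738 and CG17698, whose lowest *wild-type* library was 1.06, 1.08 and 1.08 times the highest mutant library. Edg91 had 5.72, 3.15 and 2.59 CPM in *wild-type* replicates against 1.36, 2.45 and 1.49 in mutants. CG17738 had 3.21, 4.58 and 1.31 CPM in *wild-type* replicates against 1.12, 0.942 and 1.21 in mutants. In CG17738 the near contact came from *wild-type* replicate 3, and in Edg91 from that library and mutant replicate 2. CG17698 had 24.5, 19.98 and 51.1 CPM in *wild-type* replicates against 12.2, 14.5 and 18.5 in mutants, with *wild-type* replicate 2 nearest to the mutant. CG5639, GstD10 and the 7SL RNA gene 7SLRNA:CR32864 were halved by their means but overlapped between genotypes, with ratios of 0.992, 0.868 and 0.842.

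The 12 genes with the deepest falls by the fitted change retained between 0.596% and 9.57% of the *wild-type* level. Dscam4 (3L, 8238647 to 8282398), a cell adhesion molecule of the immunoglobulin superfamily related to the axon guidance receptor Dscam1, had 25.4, 25.9 and 64.4 CPM in *wild-type* replicates 1 to 3 and 0.327, 0.165 and 0.197 in the mutant replicates. Its fall was 7.42 on the log2 scale of the fit (standard error, SE, 0.61, adjusted p 0.002102 from edgeR), and *wild-type* replicate 3 was 2.51 times the mean of the other *wild-type* libraries. Neither relative tested was called down. Dscam1 had 48.0, 34.0 and 93.3 CPM in *wild-type* replicates against 95.9, 88.4 and 106 in mutants (adjusted p 0.378 from edgeR), and Dscam2 stayed under 0.31 in every library.

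CG7900 (3R, 8094124 to 8105083), which encodes an amidase of the fatty acid amide hydrolase type, had 5.19, 4.66 and 3.64 CPM in *wild-type* replicates 1 to 3 and 0.0817, 0 and 0.0564 in the mutant replicates. These mutant levels stood for 5 counts over the 3 libraries, against 449 in *wild-type*, a share of 0.988% (95% exact binomial interval 0.319% to 2.32%, which covers counting error only). CG17684 (2R, 1866080 to 2262115) was similarly close to the floor, with 3.25, 1.72 and 3.55 CPM in *wild-type* replicates against 0, 0.0942 and 0.0846 in mutants, or 7 counts in the mutant against 323, a share of 1.92% (0.767% to 4.005% by the same method). CG41520 lies nearby in the pericentric part of the same arm (2R, 1649061 to 1778937), and its levels were 8.71, 5.09 and 10.5 CPM in *wild-type* replicates against 0.0817, 0.353 and 0.451 in mutants. In both pericentric genes *wild-type* replicate 2 was the lowest *wild-type* library.

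CG12481 (X, 14187253 to 14187841) had 10.5, 7.38 and 4.51 CPM in *wild-type* replicates 1 to 3 and 0.136, 0.212 and 0.0846 in the mutant replicates. CG4570 (3R, 10856807 to 10858066) had 4.52, 5.30 and 3.49 CPM in *wild-type* replicates against 0.436, 0.306 and 0.310 in mutants. CG13258 (2L, 16292010 to 16293025) had 15.98, 12.8 and 13.3 CPM in *wild-type* replicates against 1.39, 1.04 and 1.61 in mutants, with the fitted change at -3.43 (SE 0.20, adjusted p 4.06e-05 from edgeR). The *wild-type* libraries of CG12481 spread from 4.51 to 10.5, whereas those of CG13258 stayed within 12.8 and 15.98. tow (3L, 6942856 to 6949313), named target of wingless, had 8.73, 11.4 and 18.7 CPM in *wild-type* replicates against 0.817, 0.989 and 1.24 in mutants, and its highest *wild-type* level was in replicate 3. The other 4 genes with falls of this depth, Mrp5, Ugt49C1, Cep290 and pes, have known roles and are described with genes of like function.

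**Figure D2:**
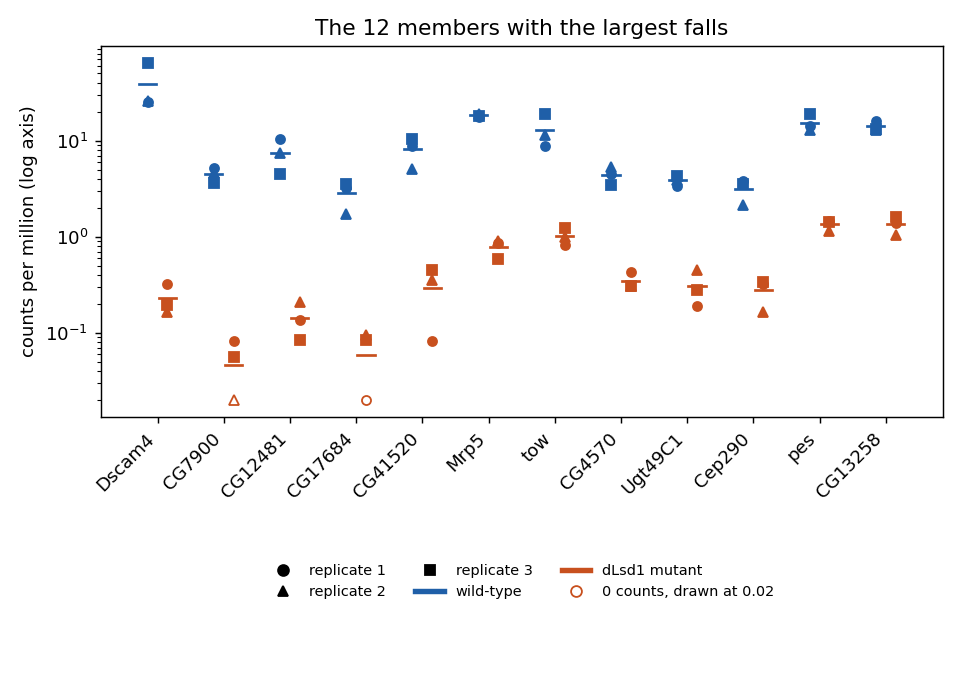
Level in each library, in CPM on a log axis, of the 12 members with the deepest fitted falls, with *wild-type* in blue, the mutant in orange, the replicate number by symbol and the mean as a bar. Open symbols stand for libraries with 0 counts, of CG7900 in mutant replicate 2 and CG17684 in mutant replicate 1. The genotypes are separated for each gene by the rule, and *wild-type* replicate 3 lies above its group for Dscam4 and tow.

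Transporters, channels and receptors made up 1 recognisable group. Mrp5 (3R, 19865417 to 19875678), an ABC transporter of the multidrug resistance-associated type, had 17.7, 19.0 and 18.2 CPM in *wild-type* replicates 1 to 3 and 0.871, 0.895 and 0.592 in the mutant replicates. The *wild-type* libraries were tight, with 18.3 ± 0.631 CPM over *wild-type* and 0.786 ± 0.168 over mutant libraries (SD, n = 3 each). The fitted change was -4.56 (SE 0.19, adjusted p 8.37e-06 from edgeR). Among 17 ABC transporter genes tested, Mrp5 was the 1 called down, and 2 were called up, w (the eye pigment transporter white) and Mdr65, with a list median of -0.02 on the log2 scale beside -0.02 for all genes tested. By the means, w went from 0.062 to 1.09 CPM. The paper lists the mutant stock in a w1118 background and recognises carriers of dLsd1∆N by yellow eyes that it ascribes to the allele. The part of the allele in the call of w was not tested. NaPi-III (3L, 11123348 to 11134663), a sodium-phosphate cotransporter, fell from 172, 106 and 157 CPM to 32.4, 37.0 and 36.9. mth (3L, 343378 to 346957), the G protein-coupled receptor methuselah known for its effect on lifespan, had 200.1, 166 and 194 CPM in *wild-type* replicates against 29.4, 29.4 and 36.5 in mutants. In NaPi-III *wild-type* replicate 2 was the lowest of its group, and mth was even across each genotype. Of the sugar, amino acid and monocarboxylate transporters, 31 were tested and none is a member, with 1 called down (Tret1-1) and 2 up.

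pes (2L, 7986786 to 7994184), a scavenger receptor of the CD36 family, had 14.1, 12.8 and 18.9 CPM in *wild-type* replicates against 1.47, 1.15 and 1.41 in mutants. Its highest *wild-type* level was again in replicate 3, and the mutant kept 8.79% of the *wild-type* mean. Of the other membrane proteins, 3 are subunits of ion channels or tied to them. ppk28, a DEG/ENaC channel that serves water taste, had 8.88, 9.31 and 8.67 CPM in *wild-type* replicates against 4.57, 4.36 and 4.26 in mutants. rpk, of the same channel family, had 55.2, 36.2 and 26.4 CPM in *wild-type* replicates against 10.97, 10.6 and 11.9 in mutants. unc79 (3R, 19230764 to 19246130), an auxiliary component of the sodium leak channel NALCN, had 6.70, 7.38 and 13 CPM in *wild-type* replicates against 0.926, 0.848 and 0.959 in mutants. The fall was thus to 49.1% of *wild-type* in ppk28 and to 10.1% in unc79, and *wild-type* replicate 3 was the highest *wild-type* library for unc79 and the lowest for rpk. nrm, an adhesion protein of the immunoglobulin superfamily, showed the same lift in that library, with 3.76, 4.94 and 11.9 CPM in *wild-type* replicates against 1.20, 1.63 and 2.59 in mutants. Of 75 chemosensory and odorant-binding genes tested, 3 were called down, ppk28, Gr64a and Or71a, and 8 up, with a list median of 0.38 on the log2 scale.

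NimC1 (2L, 13973158 to 13976769), a phagocytosis receptor of haemocytes, had 2.32, 2.51 and 1.48 CPM in *wild-type* replicates 1 to 3 and 0.245, 0.730 and 0.761 in the mutant replicates. It was on the list of 6 haemocyte markers, and none of the other 5 was lower in the mutant by its mean: Hml went from 4.02 to 5.09, Pxn from 10.9 to 17.8, srp from 1.33 to 1.91, He from 1.72 to 2.14 and eater from 2.07 to 3.12 by their means, none of them called. The summed haemocyte markers lay between 20.8 and 24.4 CPM for *wild-type* and from 21.04 to 35.7 for the mutant. The related gene NimC2, on the same stretch of 2L, was spread within both genotypes, with 3.97, 6.52 and 0.675 CPM in *wild-type* replicates against 2.78, 1.15 and 0.423 in mutants (adjusted p 0.515 from edgeR). For NimC1 the adjusted p-value was 0.0511 with all libraries and between 0.103 and 0.197 in 4 of the 6 fits that left out 1 library.

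Enzymes of small-molecule metabolism were represented across several families. Ugt49C1 (2R, 21215435 to 21217779) and Ugt302K1 (3R, 11151026 to 11153849) belong to the UDP-glycosyltransferases, which conjugate sugars to small lipophilic compounds. Ugt302K1 was abundant, at 162, 109 and 113 CPM in *wild-type* replicates against 38.7, 40.9 and 49.1 in mutants. Ugt49C1 was rare, at 3.35, 3.94 and 4.29 CPM in *wild-type* replicates against 0.191, 0.448 and 0.282 in mutants. Of 16 genes of this family tested, 3 were called down and 0 up, at a list median of 0.02 on the log2 scale. The third was Ugt49B1, which sits beside Ugt49C1 and was below the level of the rule, with 1.58, 0.788 and 1.503 CPM in *wild-type* replicates against 0.463, 0.353 and 0.282 in mutants and a fitted change of -1.87 (SE 0.41, adjusted p 0.0369 from edgeR).

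Ldh (3L, 6259105 to 6262694), lactate dehydrogenase, which turns pyruvate into lactate in growing larval tissue, had 28.4, 23.4 and 29.1 CPM in *wild-type* replicates 1 to 3 and 9.55, 8.15 and 10.5 in the mutant replicates. The libraries of each genotype lay close together, at 27.0 ± 3.09 CPM over *wild-type* and 9.41 ± 1.19 over mutant libraries (SD, n = 3 each). Ldh was the 1 gene called down of 26 tested on the list of carbohydrate metabolism, where 3 were called up (Amy-d, Amy-p and Pepck1) and the median was 0.11 on the log2 scale. veil (2R, 17478158 to 17482118), an ecto-5′-nucleotidase that releases nucleosides from extracellular nucleotides, had 3.16, 3.72 and 2.20 CPM in *wild-type* replicates against 0.544, 0.424 and 0.395 in mutants. Among 43 purine and nucleotide genes tested, veil was 1 of 6 called down and 5 were called up, at a median of 0.06 on the log2 scale. Of the other 5, Adk3 was set aside by name, and Ac3, dnk, cN-IIIB and CG16758 did not meet the rule. CG8891 (2L, 4978484 to 4979379), an inosine triphosphate pyrophosphatase that clears non-canonical purine nucleotides, had 95.4, 89.4 and 70.1 CPM in *wild-type* replicates against 36.1, 34.9 and 36.4 in mutants.

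Other enzymes, picked here by role after their values were seen, were CG10863 (an aldo-keto reductase, 19.9 to 4.16 CPM by the means), CG3603 (a short-chain dehydrogenase, 45.8 to 17.2), CG9503 (a GMC oxidoreductase, 25.1 to 11.9) and CG5618 (a relative of cysteine sulfinate decarboxylase, 50.9 to 13.5). CG10863 kept 20.9% of *wild-type* and CG5618 26.5%, whereas CG9503 kept 47.3%. LManII, a lysosomal alpha-mannosidase, went from 54.2 to 17.7 CPM by the means. Prx6c, a peroxiredoxin, had 2.11, 2.65 and 1.81 CPM in *wild-type* replicates against 0.735, 0.542 and 0.846 in mutants. Argk2, a relative of arginine kinase, went from 2.22 to 0.974 and CG9961, a relative of phosphoglycerate kinase, from 3.45 to 0.376. CG8745, an aminotransferase, had 3.11, 4.87 and 1.18 CPM in *wild-type* replicates against 0.953, 0.801 and 0.367 in mutants, with *wild-type* replicate 3 at 0.295 times the mean of the other *wild-type* libraries, the lowest such ratio among the members. The fat body markers were also lowest in that library, and their part in the level of CG8745 was not tested. Of 29 genes of lipid metabolism and 36 trypsin-like proteases and serpins tested, none is a member, with 0 and 1 called down and 2 and 5 called up.

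Genes of the cuticle and of secreted proteins included the most abundant member. Cht10 (2L, 22999574 to 23025915), a large chitinase that remodels chitin, had 1687, 1019 and 2109 CPM in *wild-type* replicates 1 to 3 and 743, 543 and 645 in the mutant replicates. *Wild-type* replicates 1 and 3 lay well above replicate 2, and the means were 1605 ± 549.6 CPM over *wild-type* and 644 ± 100 over mutant libraries (SD, n = 3 each). The fitted change was -1.35 (SE 0.27, adjusted p 0.0346 from edgeR), and the call was lost, at adjusted p-values of 0.135, 0.148 and 0.164, without *wild-type* replicate 1, mutant replicate 2 or mutant replicate 3. On the list of chitin and extracellular matrix genes, 4 of 38 tested were called down, Cht10, Timp, Cht7 and Cda4, and 1 up, obst-B, at a median of 0.10 on the log2 scale. Edg91, an ecdysone-dependent cuticle gene, kept 46.3% of *wild-type*, but its fitted change moved from -1.15 to -0.71 without *wild-type* replicate 1 and its adjusted p was 0.143 with all libraries. Vajk4, a cuticle-associated protein, had 11.7, 6.16 and 10.02 CPM in *wild-type* replicates against 3.32, 1.48 and 1.297 in mutants, and mutant replicate 1 stood above the other mutant libraries.

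CG40160 (3L, 26215815 to 26229433), a serine protease homologue in the pericentric part of 3L, had 113, 76.9 and 143 CPM in *wild-type* replicates against 35.3, 36.3 and 46.7 in mutants. GIIIspla2 (X, 8157628 to 8159348), a secreted phospholipase A2, had 38.6, 43.2 and 36.2 CPM in *wild-type* replicates against 15.5, 15.7 and 13.6 in mutants. Ance-2, a relative of angiotensin-converting enzyme, went from 3.59 to 1.34 CPM by the means. Mutant levels of GIIIspla2 stayed within 13.6 and 15.7, and those of CG40160 within 35.3 and 46.7.

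A small group belongs to cilia, flagella and the testis, although these discs are female. Cep290 (3L, 843926 to 851080), a protein of the ciliary transition zone, had 3.80, 2.15 and 3.57 CPM in *wild-type* replicates 1 to 3 and 0.327, 0.165 and 0.338 in the mutant replicates. ODA-Dnal1, a light chain of the outer dynein arm of motile cilia, had 2.08, 2.87 and 1.90 CPM in *wild-type* replicates against 0.408, 0.330 and 0.564 in mutants. Sdic2, a sperm dynein intermediate chain gene from a tandem cluster on X, had 10.1, 7.09 and 8.32 CPM in *wild-type* replicates against 1.80, 1.77 and 1.297 in mutants. The cluster's near-identical copies can share reads, and of the others Sdic4 had 0.0478, 0 and 0.0653 CPM in *wild-type* replicates against 0.163, 0.212 and 0.338 in mutants. r-cup, like Taf12L best known from spermatogenesis, had 1.46, 3.65 and 2.004 CPM in *wild-type* replicates against 0.980, 1.22 and 0.902 in mutants, near the limit of the rule. The general paralogue Taf12 had 53.9, 57.3 and 55.5 CPM in *wild-type* replicates against 47.8, 50.7 and 50.1 in mutants (adjusted p 0.316 from edgeR). None of the 9 testis genes tested on the list of male-biased genes was called down, and 1 (a Stellate gene, SteXh:CG42398) was called up, while the 4 germ line markers matched summed to between 3.20 and 6.31 CPM over the 6 libraries. With 2.23% of all genes tested called down, the absence of such calls among 9 genes carries little weight.

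Elp2 (2R, 10645735 to 10648634), a subunit of the Elongator complex that modifies wobble uridines of tRNAs, had 180.1, 154 and 146 CPM in *wild-type* replicates 1 to 3 and 71.9, 77.3 and 82.9 in the mutant replicates. Elp3, the catalytic subunit, did not pass the test, with 80.5, 79.3 and 58.4 CPM in *wild-type* replicates against 65.0, 59.1 and 68.0 in mutants (adjusted p 0.451 from edgeR). The fitted change of Elp2 was -1.08 (SE 0.12) and that of Elp3 -0.22 (SE 0.14). hpRNA:CR32207 (3L, 19477329 to 19478720), a hairpin RNA that is a source of endogenous siRNAs, had 168, 163 and 105 CPM in *wild-type* replicates against 69.2, 68.5 and 77.8 in mutants, with *wild-type* replicate 3 closest to the mutant. Fhos, a formin that organises actin, was at the limit of the rule with 57.3 ± 13.5 CPM over *wild-type* and 28.5 ± 3.42 over mutant libraries (SD, n = 3 each).

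**Figure D3:**
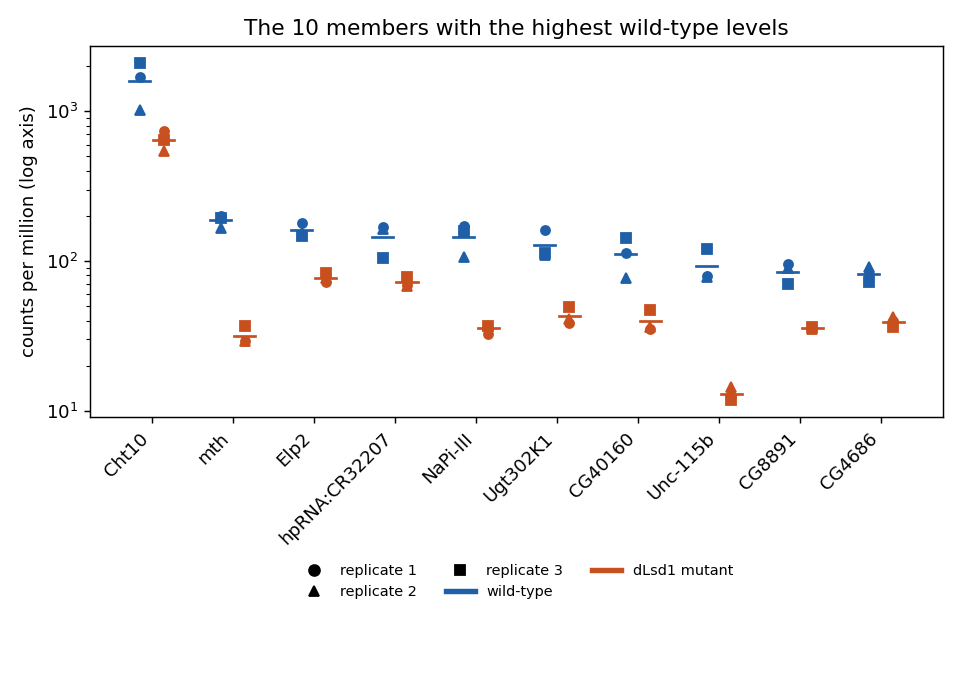
Level in each library, in CPM on a log axis, of the 10 members with the highest *wild-type* means, with *wild-type* in blue, the mutant in orange, the replicate number by symbol and the mean as a bar. Unc-115b shows the deepest fall of the 10, to 14.0% of *wild-type*, and the *wild-type* libraries of Cht10 spread from 1019 to 2109.

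Some members lay close together. Within 10 kb of another member were 17 of the 82 members with a position (20.7%), beside 218 of 7379 other expressed genes (2.95%) within that distance of a member. As a description with no test, this count includes 6 members that overlap a member. At 5 kb the count was 14 and at 20 kb it was 19, and the median distance to the nearest member was 225 kb. By chromosome arm, 15 members were on 2L, 13 on 2R, 23 on 3L, 20 on 3R, 11 on X and 0 on the fourth, where 58 other expressed genes lie. On the fourth, 2 non-coding genes met the 3 conditions and were set aside by name. With 1.3% of all genes at or above 2 CPM meeting the conditions, the 0 carries little weight. The arm 3L, which carries *dLsd1*, held 28.0% of members and 19.7% of the other expressed genes. Of its 23 members, 3 lay within 1 Mb of *dLsd1*, CG5618 at 0.123 Mb, CG9231 at 0.640 Mb and hpRNA:CR32207 at 0.748 Mb, against 153 of 1451 other expressed genes of the arm.

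Unc-115b (3R, 9687060 to 9692775), a LIM-domain protein that binds actin, and p24-2 (3R, 9687402 to 9692794), a cargo receptor between endoplasmic reticulum and Golgi, overlap on the same strand and share 3535 exon bases, 99.5% of those of p24-2. Unc-115b had 78.9, 78.3 and 119.5 CPM in *wild-type* replicates against 12.5, 14.5 and 11.7 in mutants. p24-2 had 66.7, 66.3 and 73.2 CPM in *wild-type* replicates against 23.1, 23.2 and 17.8 in mutants. Since reads in the shared exons fit either gene, the split between them is uncertain. Each lies near a paralogue, Unc-115a and eca. Unc-115a, itself called down, went from 103, 107 and 137 to 58.3, 64.9 and 71.1 CPM (56.0% of *wild-type*, adjusted p 0.00975 from edgeR), whereas eca had 120.4, 108 and 90.7 CPM in *wild-type* replicates against 103, 95.6 and 81.7 in mutants (adjusted p 0.481). CG18542 and CG32939, on either side of the pair, were listed with equal values in each library, 7.75, 5.87 and 5.77 CPM in *wild-type* replicates against 3.46, 3.82 and 3.58 in mutants, and how reads that fit both genes were divided is not given in the sources used here.

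Mrp5 and CG4686 (3R, 19864496 to 19866869) overlap on opposite strands by 456 exon bases, 38.2% of the exons of CG4686, which had 81.3, 90.8 and 72.5 CPM in *wild-type* replicates against 39.6, 42.2 and 35.95 in mutants. Next to Mrp5, at 0.296 kb, CG17186 went the other way, from 8.85, 8.52 and 9.17 to 47.6, 54.9 and 66.6 CPM (fitted change 2.63, SE 0.14, adjusted p 2.48e-05 from edgeR). CHKov1 (3R, 25323156 to 25329316) and CHKov2 (3R, 25329530 to 25331203), neighbouring genes of the choline kinase-like family, both fell. CHKov1 had 28.4, 28.7 and 85.8 CPM in *wild-type* replicates against 4.14, 5.30 and 5.08 in mutants, where *wild-type* replicate 3 was 3.01 times the mean of the other *wild-type* libraries, the highest such ratio among members. Its fitted change was -3.34 with all libraries and -2.59 without *wild-type* replicate 3, and the adjusted p rose from 0.0233 to 0.109 without mutant replicate 3. CHKov2 was steadier over the *wild-type* libraries, at 21.2, 12.5 and 19.3 CPM in *wild-type* replicates against 3.70, 3.06 and 4.77 in mutants. CG10559, at 7.04 kb from CHKov1, was higher in the mutant, with 3.13, 3.80 and 1.87 CPM in *wild-type* replicates against 11.9, 12.2 and 12.8 in mutants (fitted change 2.07, adjusted p 0.00189 from edgeR).

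The other groups of neighbours were CG7231 beside pes, CG5217 beside unc79, Gbeta5 beside GIIIspla2, CG44476 beside CG15152, and CG34445 beside CG43325 and CG43326. CG7231 (2L, 7983946 to 7986785) had 18.1, 11.7 and 13.8 CPM in *wild-type* replicates against 5.66, 4.95 and 4.85 in mutants. CG5217 (3R, 19247052 to 19248136) had 3.23, 2.65 and 3.83 CPM in *wild-type* replicates against 0.463, 0.612 and 0.592 in mutants. Gbeta5 (X, 8150731 to 8152275), a G protein beta subunit, had 2.49, 1.86 and 2.22 CPM in *wild-type* replicates against 0.408, 0.589 and 0.536 in mutants and kept 23.3% of *wild-type*, less than the 37.9% of GIIIspla2. The partners in these pairs thus fell to unequal depths, as pes kept 8.79% and CG7231 35.4%. CG44476 (2L, 18112830 to 18113179) had 5.86, 3.65 and 2.61 CPM in *wild-type* replicates against 0.408, 0.236 and 0.902 in mutants. CG15152 (2L, 18114547 to 18115220) had 5.43, 3.87 and 2.03 CPM in *wild-type* replicates against 0.898, 0.4004 and 0.761 in mutants. CG34445 (2R, 22647892 to 22648478) had 7.46, 8.17 and 3.92 CPM in *wild-type* replicates against 2.61, 2.26 and 1.75 in mutants. *Wild-type* replicate 3 was the lowest *wild-type* library for each of these 3 genes. CG43325 (2R, 22655549 to 22657135) had 3.56, 3.22 and 1.416 CPM in *wild-type* replicates against 0.898, 0.612 and 0.959 in mutants. CG43326 (2R, 22655549 to 22656998) had 3.56, 3.29 and 1.416 CPM in *wild-type* replicates against 0.898, 0.612 and 0.959 in mutants. The 1229 exon bases of CG43326 are all shared with CG43325 on the same strand, and the mutant values of both genes are equal, so they stand for close to 1 measurement. CG34445, CG43325 and CG43326 were called with all libraries, and the call was lost in 3, 4 and 4 of the fits that left out 1 library.

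Among the 218 other expressed genes within 10 kb of a member, 8 were called down (3.67%) and 8 up (3.67%), beside 1.06% and 2.35% of the 7161 with a position that lie farther away. Those called down included Ac3, an adenylate cyclase 8.51 kb from CG2201, and Mthfs, a folate enzyme 0.011 kb from CG34423, with 16.2, 21.5 and 12.7 CPM in *wild-type* replicates against 9.31, 9.63 and 9.61 in mutants. Unc-115a, CG18542 and CG32939, described above, were 3 of the 8, and all lie beside Unc-115b and p24-2. CG18542 and CG32939 had equal values in each library, and the share of 3.67% called down counts both. In total, 23 members share exon bases with another gene, 5 on the same strand and 21 on the opposite strand, and whether the strand was used in counting is not given in the sources used here. veil and ppk28 lie wholly within exons of genes on the other strand, CG43110 and asRNA:CR44053, which were at 0.132 and 0.447 CPM in *wild-type*.

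In *wild-type* replicate 3, long members tended to be higher and short ones lower than in the other *wild-type* libraries. The coefficient of variation had a median of 22.1% over the *wild-type* libraries and 15.8% over the mutant libraries for members, against 13.5% and 7.43% for the other expressed genes, which are more abundant. *Wild-type* replicate 3 was the lowest *wild-type* library for 43 members (51.8%, beside 49.6% of the other expressed genes) and the highest for 24 (28.9%, beside 35.96%). It was at least 1.5 times the mean of the other *wild-type* libraries for 12 members (14.5%, beside 13.7% of the other expressed genes), whose median exon length was 3935 bp. It was lower by the same factor for 17 members (20.5%, beside 2.29%), whose median exon length was 1229 bp. Across the 82 members with annotated exons, exon length and this ratio had a Spearman correlation of 0.56 and a Pearson correlation of 0.58 on log scales, beside 0.53 and 0.51 for 7379 other expressed genes, given as a description over genes measured in the same libraries.

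**Figure D4:**
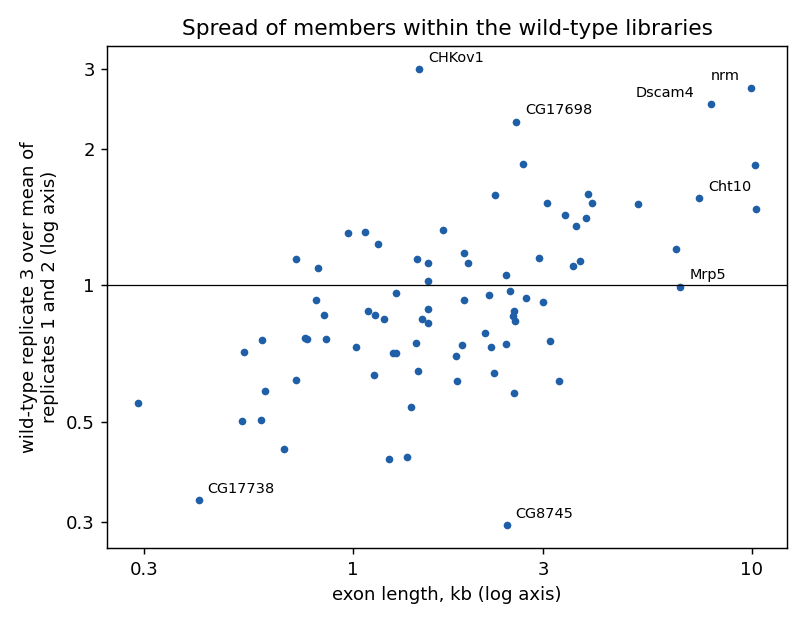
Level in *wild-type* replicate 3 divided by the mean of *wild-type* replicates 1 and 2, against exon length in kb, on log axes, for the 82 members with annotated exons, and a line at equal levels. Long genes such as Dscam4 (2.51) and nrm (2.73) lie above the line and short ones such as CG17738 (0.337) below. The extremes, CHKov1 (3.01, with 1463 bp of exon) and CG8745 (0.295, with 2429 bp), go against this pattern, beside a member median of 1820 bp.

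This spread touched CG17698 and CG17738, which were among the 5 members not called. For CG17698 the fitted change was -1.13 with all libraries and -0.61 without *wild-type* replicate 3, in which its level was 51.1 CPM against 24.5 and 19.98. For CG17738 it went from -1.47 to -1.85 without that library, where its level was 1.31 against 3.21 and 4.58. With DESeq2 instead of edgeR, all 83 members were called, and 280 genes in all (2.58%). Lists of 30 chromatin regulators and of 55 genes of the stress and disc damage response that were tested held no member, with 0 and 3 called down and 1 and 3 called up.

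The members without a known role or a place in the groups above also fell to unequal depths. CG3223, at 70.5, 73.8 and 60.7 CPM in *wild-type* replicates against 9.61, 9.63 and 10.3 in mutants, was uniform within each genotype and kept 14.4% of *wild-type* (fitted change -2.83, SE 0.12, adjusted p 7.37e-06 from edgeR). CG6216 kept 15.1%, CG5039 21.6%, CG9121 26.6%, CG42598 26.7% and CG15546 29.3%. CG9231, CG42272, CG4872 and CG32281, with *wild-type* means between 20.3 and 45 CPM, kept between 41.3% and 46.7%. In CG5455 and CG6071 the *wild-type* libraries were tight, with 13.5 ± 0.736 CPM over *wild-type* and 5.13 ± 0.857 over mutant libraries (SD, n = 3 each) for CG5455 and 9.48 ± 0.819 CPM over *wild-type* and 3.50 ± 0.429 over mutant libraries (SD, n = 3 each) for CG6071.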

How the data were processed

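RNA was sequenced from 3 *wild-type* and 3 *dLsd1* mutant wing disc samples with stranded, poly(A)-selected paired-end libraries on the same lane. The authors trimmed reads with Trimmomatic 0.36 and aligned them to dm6 with STAR 2.5.2a, and they deposited counts of reads per gene and transposon family without normalization, in the table format of TEToolkit. The annotation release, the strand setting and the treatment of reads with several matches are not given in the sources used here. Identifiers were matched to symbols and positions of Ensembl release 115 (BDGP6, the dm6 coordinates) for 17249 of 17471 genes.

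Counts per 1000000 (CPM) were taken of each library's total. Totals ranged from 13960866 to 45909324, and the shallowest, *wild-type* replicate 2, is the least precise. Counts of genes and transposon families with a sum of at least 10 were tested with edgeR 4.0.16 (R 4.3.3, TMM, robust quasi-likelihood F-test) and adjusted by Benjamini-Hochberg. The code was tested on simulated data with known changes. Replicates differed by more than counting noise in each pair, and nothing in the sources says that the samples of a genotype were collected separately, so p-values measure only the spread between these samples. Same-numbered libraries deviated together (correlations of 0.399, 0.172 and 0.448 over 7757 features), although *wild-type* replicate 2 was closer to mutant replicate 1 (0.337) than to mutant replicate 2. Each same-numbered value was above 0.1, which was taken only as a hint from the data that the numbers pair the samples. The main fit used no block, and the replicate number as a block was an alternative.

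Members and lists were chosen with earlier results of these data known. The text names the 12 deepest falls, the 10 highest *wild-type* levels, members on a list, members within 10 kb of another and those at each threshold. Others were named by role or position after their values were seen. Alternatives were DESeq2 1.42.0, other scalings, filters and thresholds, a replicate block and each library left out. Leaving out both libraries numbered 3 was added after seeing the data. Some genes are not reported here.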

Additional observations from a re-analysis of the deposited data

How the results depend on the processing

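No direction was reversed for any of the 46 named members in any fit, and no fit gave a positive change for a member. The rule largely fixed this outcome, since it placed each mutant library below each *wild-type* library, so nothing is read from it. The number of members was 83 as reported, 87 with TMM-scaled library sizes, 83 with totals of gene counts only, 52 at a *wild-type* minimum of 5 CPM and 59 at a mutant share of at most 0.4. It ranged from 79 to 104 when 1 library was left out, but with changes in membership. Of the 83 members, 71 still met the rule without *wild-type* replicate 2, 73 without mutant replicate 1 and 76 without *wild-type* replicate 1. Without mutant replicate 3 it was 79, and 80 without *wild-type* replicate 3 or mutant replicate 2. At a *wild-type* minimum of 1 CPM, the 83 members and 32 more genes met the rule. The members called downregulated ranged from 64 to 83 of 83 without 1 library, against 78. Over all genes tested, 242 were called down, and from 145 to 411 without 1 library: 152 without *wild-type* replicate 1, 411 without *wild-type* replicate 3, 145 without mutant replicate 2 and 155 without mutant replicate 3. With both libraries numbered 3 left out, 107 genes met the rule, and 82 of the 83 members and 339 genes in all were called down. With the replicate block, which uses the pairing of the numbers, 80 members and 258 genes were called. The block changed 4 calls of members: r-cup (adjusted p = 0.0944 from edgeR), Taf12L (0.0815) and CG17698 (0.0377) were gained, and 1 member without a symbol was lost (0.107). It changed no other call of a member. Without 1 library, 15 of the 78 called members lost the call at least once: Cht10, CHKov1, NimC1, CG34445, CG43325, CG43326, Vajk4, nrm, CG8745, Argk2, CG15414, CG2201, CG8927, CG32485 and the member without a symbol. Why these counts moved was not tested. The search of promoters for motifs was not run, since no sequence was used here. Depth limits the members under 5 CPM, and in CG7900 and CG17684 the mutant level rests on 5 and 7 counts.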
